A study of Homo sapiens with 9 samples.

Results

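The regions described here were the peaks of RNA-binding proteins (RBPs) at the 3' ends of messenger RNAs. A peak was taken when its centre lay in a 3' UTR exon of the Ensembl canonical transcript of a coding gene, on the same strand, more than 50 nt after the stop codon and at most 150 nt before the annotated transcript end. Of 2478204 merged peaks in 54 libraries, 22717 met this rule, and they lay on 5391 genes. The peaks were short, with a median length of 40 nt and quartiles of 29 and 55 nt. Only position and strand chose them, so their reads, enrichment and neighbours were free to vary. Sequence was free only in part, since sequence features of transcript ends come with the rule. The 150 nt limit cut through a flat stretch, with 1920 peaks in the last 10 nt inside it and 1967 in the next 10 nt outside it. Peaks that met the rule except that they lay more than 150 nt before the end, 362275 in all, are called 3' UTR body peaks.

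The libraries came from antibody-barcode eCLIP (ABC), in which cells are UV-crosslinked, antibodies are tagged with barcode oligonucleotides, and the barcode is joined to the RNA held by the antibody's RBP, so that several RBPs can be read from 1 tube. K562 is an erythroleukaemia cell line and HEK293 an embryonic kidney cell line; the HEK293 samples are titled HEK293T. The labels name no genetic change and no treatment in any group. Tubes with all 10 antibodies (10plex), against DDX3, EIF3G, FAM120A, IGF2BP2, LIN28B, PRPF8, PUM2, RBFOX2, SF3B4 and ZC3H11A, were made from K562 in 3 replicates and from HEK293 in 2. Tubes with 1 antibody (singleplex) were made for RBFOX2 in HEK293 and for SLBP in K562, each in 2 replicates. Nothing in the labels says that replicates came from separate cultures, so the spread between them may be technical.

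The 10plex K562 libraries held 9941 of the 3' end peaks on 3384 genes, and the 10plex HEK293 libraries held 10115 on 3905 genes. The RBFOX2 singleplex libraries held 2605 and the SLBP singleplex libraries 56. Reads in peaks ranged from 13351 to 2280258 per library in the K562 tubes and from 17830 to 2843103 in the HEK293 tubes, with PUM2 the shallowest in each tube. The smallest K562 libraries had 14 of the 3' end peaks, for EIF3G and PUM2 in replicate 1, and the largest library had 1993, for FAM120A in replicate 2. The cell line field of the 10plex HEK293 samples reads K562, and that of K562 replicate 3 reads K563, so defining markers were checked. All 12 K562 markers, among them GATA1 and the fetal globins, had peaks in each K562 tube, and EPOR was the only one of them with peaks in the HEK293 tubes. All 5 HEK293 markers, among them PAX2 and EMX2, had peaks in the 10plex HEK293 tubes and 2 of them in the K562 tubes, so the peaks follow the sample titles. The RBFOX2 singleplex libraries had 4 of the HEK293 markers and EPOR alone of the K562 markers. The far shallower SLBP libraries had 5 and 1 of the K562 markers and 1 HEK293 marker each.

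As background, the 3' end of most mRNAs is made by cleavage and polyadenylation, directed by a hexamer, most often AATAAA or ATTAAA in DNA letters, a short way upstream of the cleavage site. The last stretch of the 3' UTR is where poly(A)-binding, deadenylation and stability factors meet the message. Replication-dependent histone mRNAs are the exception: they end in a stem-loop bound by SLBP and carry no poly(A) tail. Among the profiled RBPs, PUM2 is a Pumilio repressor that binds UGUA, any base, then AUA, RBFOX2 is a splicing regulator that binds GCAUG, IGF2BP2 and LIN28B are cytoplasmic mRNA-binding proteins, ZC3H11A is a zinc finger protein linked to mRNA export, and FAM120A is a 3' UTR-binding protein. DDX3 and EIF3G act in translation initiation, and PRPF8 and SF3B4 are spliceosome components.

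Short stretches of some 3' ends show what lay under the peaks. They are given in GRCh38, 5' to 3' on the mRNA strand, with the motif in capitals. In SAMSN1, an adaptor protein gene on chr21, minus strand, a Pumilio motif lay at the upstream edge of the PUM2 peak, with a poly(A) signal inside the peak (chr21:14485274-14485303 and chr21:14485237-14485266).
SAMSN1 Pumilio motif: ttgtctttaagTGTAAATAttttaaaattt
SAMSN1 poly(A) signal: cctaatgttaatAATAAAaagaactatttg
In HHEX, a homeobox transcription factor gene on chr10, plus strand, a second form of the motif lay at chr10:92695531-92695560.
HHEX Pumilio motif: tgtttataatgTGTATATAgaattgttcac
The RBFOX2 motif GCATG is shown in PLD3 (chr19:40378386-40378414, plus strand) and in MAZ (chr16:29811083-29811111, plus strand), where a poly(A) signal followed at chr16:29811130-29811159. The other RBFOX2 sites named below, in DDX6 and RAC3, had no GCATG within 50 nt.
PLD3 RBFOX2 motif: agaaatgggggtGCATGctgggcctggcc
MAZ RBFOX2 motif: cctgtgtcccctGCATGtaccccaccctc
MAZ poly(A) signal: ggaccccattacAATAAAttttaaataaaa
The poly(A) signal of VIM (chr10:17237561-17237590, plus strand) lay within an IGF2BP2 peak, and that of NKTR (chr3:42648701-42648730, plus strand) directly after a ZC3H11A peak.
VIM poly(A) signal: tggttctgcttcAATAAAtctttggaaaaa
NKTR poly(A) signal: gaccttgtagaaATTAAAatatatacttag
The 2 histone H4 genes with the highest SLBP enrichment both ended in a perfect stem of 6 base pairs with a loop of 4 bases (chr6:26285124-26285153, minus strand, and chr6:26204994-26205023, plus strand).
H4C8 stem-loop: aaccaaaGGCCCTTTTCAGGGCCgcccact
H4C5 stem-loop: aatcaaaGGCCCTTTTCAGGGCCgcccaca

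ZC3H11A and PUM2 placed a larger share of their 3' UTR peaks at the mRNA end than the other RBPs did in K562. For ZC3H11A, 3' end peaks made up 12.1%, 13.3% and 14.9% of all 3' UTR peaks in replicates 1 to 3. For PUM2 the values were 10.1%, 13.4% and 16%, on 14, 69 and 49 peaks. FAM120A had the lowest share in each of the 3 replicates, at 4.43%, 5.22% and 4.26%. Mean shares of the other 7 RBPs lay between 6.65% for PRPF8 and 9.54% for EIF3G.

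The share of 1 RBP was compared with the mean of the other 9 by an exact permutation test, two-sided, that exchanged libraries among RBPs inside each tube, which in K562 has 1000 choices and a smallest p of 0.001. ZC3H11A averaged 13.44% ± 1.4 (SD, n = 3) against 7.81% for the other 9 (exact permutation p = 0.004, adjusted p = 0.025 over 10 RBPs). PUM2 averaged 13.18% ± 2.94 (SD, n = 3) against 7.84% (exact permutation p = 0.005, adjusted p = 0.025). FAM120A averaged 4.64% ± 0.51 (SD, n = 3) against 8.79% and did not pass after adjustment (exact permutation p = 0.022, adjusted p = 0.0733). Without 1 of the K562 replicates the differences were 4.13 to 6.74 percentage points for PUM2 and 5.17 to 6.08 for ZC3H11A, and with 100 choices neither passed after adjustment (exact permutation, adjusted p of 0.1 to 0.167). Restricted to peaks enriched over the complement control described below, the PUM2 and ZC3H11A differences were 8.93 and 6.74 percentage points and missed the threshold (exact permutation, adjusted p = 0.0567 and 0.212).

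In HEK293 the ZC3H11A shares were 14.3% and 13.4%, above every other library of the same tube. Their mean of 13.87% stood against 5.49% for the other 9 (exact permutation p = 0.01, the smallest that 2 replicates allow, adjusted p = 0.1). The PUM2 shares were 6.74% and 8.06%, on 25 and 54 peaks, and their mean of 7.40% stood against 6.21% (exact permutation p = 0.51, adjusted p = 0.9). FAM120A was again the lowest RBP in both tubes, at 3.93% and 3.70%.

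**Figure D1:**
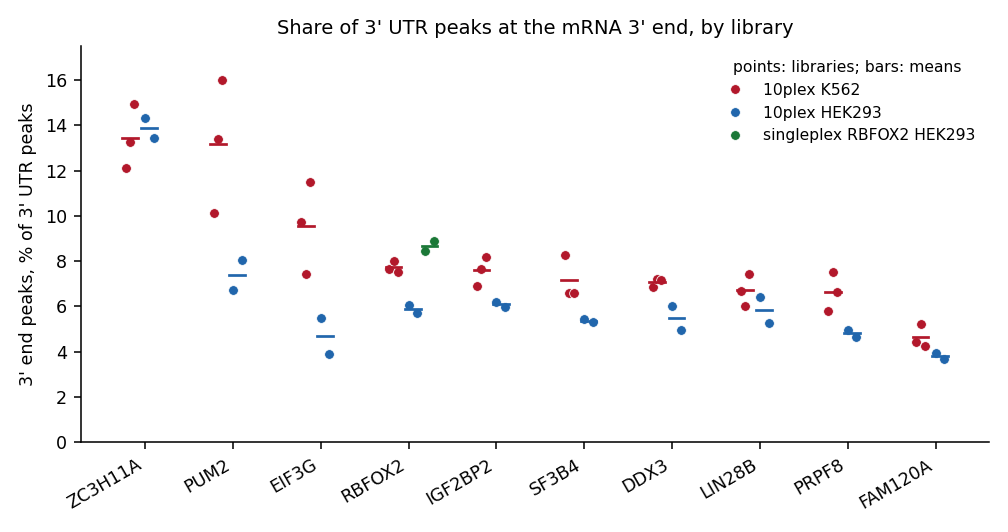
Peaks at the mRNA 3' end as a percentage of all 3' UTR peaks (y axis) for each RBP (x axis), with 1 point per library and a bar at the mean of each group. ZC3H11A lies between 12.1% and 14.9% in both cell lines, PUM2 lies at 10.1% to 16% in K562 and at 6.74% and 8.06% in HEK293, and FAM120A is lowest in every tube.

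Between cell lines, 9 of the 10 RBPs had a higher mean share in K562 than in HEK293, and for 8 of them the libraries of both lines did not overlap. For PUM2 the means were 13.2% in K562 and 7.40% in HEK293, and for EIF3G they were 9.54% and 4.70%. ZC3H11A was the exception, at 13.4% and 13.9%. With 3 against 2 replicates the smallest p is 0.1, and no RBP passed (exact permutation, lowest adjusted p = 0.25). For RBFOX2 in HEK293 the singleplex shares were 8.47% and 8.90% and the 10plex shares 6.05% and 5.70%. The groups did not overlap, but 2 against 2 libraries cannot give a p below 0.333, the value found in the exact permutation test. The tubes also differed in depth and number of peaks, and the part of these in the differences was not tested.

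Peak density gave the same RBPs at the top in K562. It was taken as the log2 ratio of peaks per kb of 3' end to peaks per kb of 3' UTR body, over transcripts with at least 1 peak and at least 100 nt of body. PUM2 stood at 0.77, 1.04 and 1.3, above all other libraries of each tube, with a mean of 1.03 against -0.05 for the other 9 (exact permutation p = 0.001, adjusted p = 0.01). ZC3H11A stood at 0.63, 0.87 and 0.80 and did not pass after adjustment (exact permutation p = 0.017, adjusted p = 0.085). In HEK293 ZC3H11A was at 0.93 and 1.00 and PUM2 at 0.16 and 0.47. The lowest K562 means were those of FAM120A, at -0.45, and SF3B4, at -0.44, and SF3B4 ranged from -1.14 to 0.03.

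As a share of all peaks of a library, no RBP passed after adjustment. The K562 means ran from 0.137% for PRPF8 to 2.99% for IGF2BP2, 3.23% for ZC3H11A and 3.27% for PUM2. PUM2 was again the most variable, at 1.49%, 4.5% and 3.82%. The lowest adjusted p in K562 was 0.075, for PUM2 and ZC3H11A (exact permutation).

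Along long 3' UTRs, peaks of most RBPs thinned out before the transcript end. On transcripts with a 3' UTR of at least 1100 nt, peaks were counted in 50 nt bins and divided by the mean count per bin between 250 and 1000 nt before the end. In the last 50 nt of K562 transcripts this ratio was 0.10 for LIN28B, 0.11 for DDX3, 0.26 for FAM120A, 0.44 for IGF2BP2 and 0.71 for ZC3H11A. PUM2 alone was above 1 there, at 1.19, and it kept that value in the next 2 bins. ZC3H11A stood at 1.29 between 50 and 100 nt and at 1.24 between 100 and 150 nt. In HEK293 ZC3H11A reached 1.48 and 1.55 in those bins, whereas PUM2 was at 0.44 in the last 50 nt. RBFOX2 stood at 0.82 in the last 50 nt in the singleplex libraries and at 0.42 in the 10plex HEK293 libraries. These ratios pool replicates and are descriptions with no test. Those of PUM2 rest on few peaks, since over transcripts of any length it had 132 3' end peaks in K562 and 79 in HEK293.

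**Figure D2:**
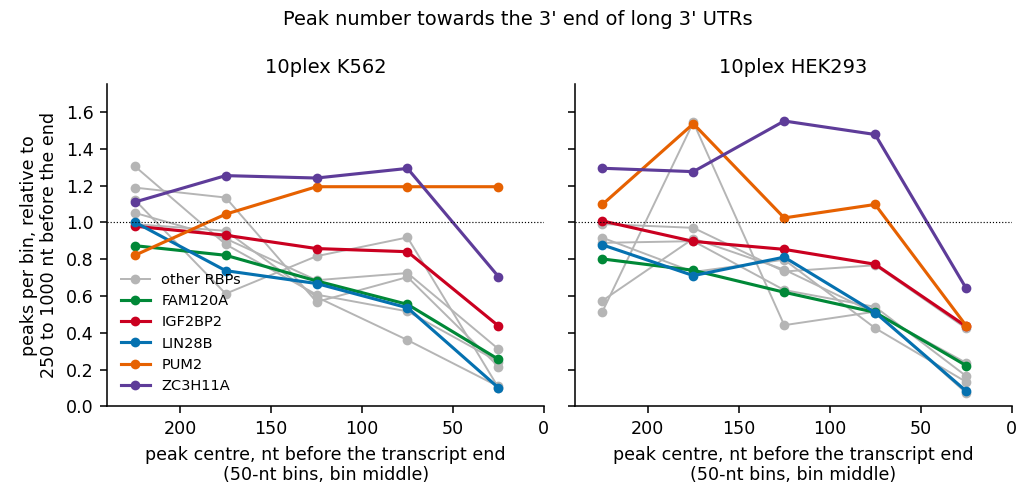
Peaks per 50 nt bin relative to the bins 250 to 1000 nt before the transcript end (y axis) against the distance of the peak centre from that end (x axis, nt), for 3' UTRs of at least 1100 nt, replicates pooled, 10plex K562 left and 10plex HEK293 right. ZC3H11A is above 1 between 50 and 250 nt before the end in both lines, and in K562 PUM2 is at 1.19 in the last bin, where LIN28B is at 0.10.

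Within the 150 nt window the median distance of peaks from the transcript end was 70 to 101.5 nt over the 30 K562 libraries. LIN28B had the largest mean distance from the end, at 101.5, 96 and 95 nt in K562 and 101.5 and 100 nt in HEK293, and PRPF8 in K562 the smallest, at 75.5, 88 and 73 nt. In single K562 tubes LIN28B was above all others in 1 of 3. Neither passed after adjustment in K562 (exact permutation, adjusted p = 0.245 for both). In HEK293 the LIN28B distance was above all others in both tubes (exact permutation p = 0.01, adjusted p = 0.1).

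How far a 3' end peak of 1 RBP stood above the rest of its pool was read from the complement control (CC), the other 9 libraries of the same tube added together. The fold is scaled by library size, so an enriched peak can hold fewer reads than the CC does there. A peak was called enriched at P below 0.001 and more than 8-fold over the CC, the thresholds of the study's methods. PUM2 had the highest share of enriched 3' end peaks. In K562 it was 69.2%, 66.7% and 61.2%, with no other library above 47.8%. The mean was 65.7% ± 4.09 (SD, n = 3) against 16.9% for the other 9 (exact permutation p = 0.001, the smallest possible, adjusted p = 0.01). In HEK293 it was 61.9% and 64.6% against 14.3% (exact permutation p = 0.01, the smallest possible, adjusted p = 0.1). Of all PUM2 peaks, 3' end or not, 31.2% were enriched in K562 and 24.6% in HEK293, and of those in the 3' UTR body 42.4% and 30.3%. PUM2 also had the smallest share of the pool, 0.865% to 1.03% of the K562 reads and 0.969% to 0.986% of the HEK293 reads. The part of the pool share in the call was not tested. EIF3G, with 1.77% to 2.24% of the pool, in K562, had enriched shares of 9.09% to 40.0%.

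LIN28B and ZC3H11A followed. LIN28B had 47.8%, 39.7% and 32.6% of its K562 3' end peaks enriched and 39.0% and 29.6% in HEK293, beside 37.5% and 28% of all its peaks. ZC3H11A had 32.8%, 29.9% and 27.3% in K562 and 33.1% and 27.4% in HEK293, beside 22.6% and 12.4% of all its peaks. IGF2BP2 had 541 of 2594 enriched in K562 (20.9%) and 304 of 2248 in HEK293 (13.5%), beside 12.1% and 5.05% overall. EIF3G had 10 of 56 in K562 and 7 of 49 in HEK293, beside 32.3% and 21.2% overall.

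FAM120A contributed the most 3' end peaks, 4159 in K562 and 3535 in HEK293. Of those with a CC value, 15.5% were enriched in K562 and 18.9% in HEK293, beside 18.5% and 18.8% of all its peaks and 34.0% and 41.3% of its 3' UTR body peaks. In every tube its 3' end share was below its body share, for instance 12.8% against 28.0% in K562 replicate 3. Its 3' end peaks also held fewer reads than its body peaks. The library medians were 7, 10 and 7 against 9, 16 and 9 in K562, and 7 and 9 against 12 and 17 in HEK293. The part of reads in the call was not tested.

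RBFOX2, PRPF8, SF3B4 and DDX3 had few enriched 3' end peaks. RBFOX2 had 4.92% in K562 and 2.27% in HEK293, beside 10.7% and 5.56% overall. PRPF8 had 4.23% and 4.41%, beside 22.3% and 17.2%. SF3B4 had 3.16% and 5.50%, beside 30.7% and 24.5%. DDX3 had 7.01% and 4.63%, beside 21.3% and 13.1%. In the singleplex RBFOX2 libraries, compared with an external RNA-seq background, 12.5% and 18.6% of 3' end peaks were enriched, beside 10% of all peaks and 5.57% and 7.52% of body peaks.

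Over the 10 RBPs the enriched share was higher at the 3' end than in the body for 8 in K562 and 8 in HEK293. The mean difference was 3.82 percentage points in K562 (exact sign flips over RBPs, p = 0.279) and 4.46 in HEK293 (exact sign flips, p = 0.344), and neither passed. Against the external background the K562 difference was -0.12 points.

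**Figure D3:**
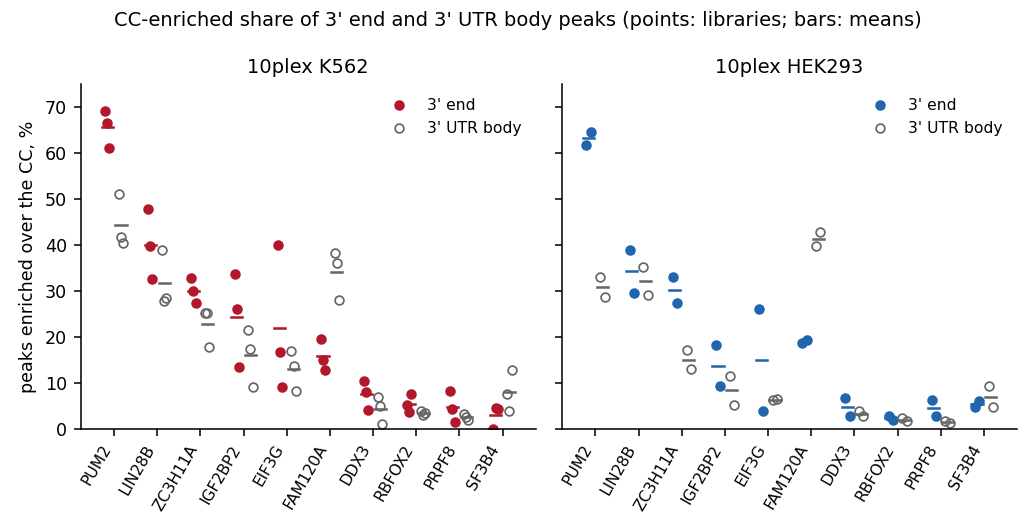
Percentage of peaks enriched over the CC (y axis) for each RBP (x axis) in 10plex K562 (left) and HEK293 (right), with filled points for 3' end peaks and open points for 3' UTR body peaks of each library and bars at the means. PUM2 3' end peaks lie between 61.2% and 69.2%, and FAM120A has its 3' end points below its body points in every tube.

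Many 3' end peaks were shared within a tube. In K562, 51.0% of 3' end peaks overlapped a peak of another RBP in the same tube, and in HEK293 58.3%. Any peak of another RBP was counted, whether or not it met the 3' end rule. By RBP, FAM120A was the least shared, at 38.1% ± 7.57 in K562 (SD, n = 3), and EIF3G the most, at 86.1% ± 1.21 (SD, n = 3). Of the PUM2 3' end peaks 79.4% ± 4.33 (SD, n = 3) overlapped another RBP's peak. The FAM120A body peaks overlapped another RBP's peak in 29.5% ± 5.43 (SD, n = 3), and the difference from its 3' end peaks was not tested.

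Replicates shared a moderate part of their 3' end sites. Divided by the shorter list, the mean overlap between K562 replicates was 58.4% for FAM120A (45.1% to 65.4% over 3 pairs), 55.6% for IGF2BP2 and 50.8% for LIN28B. It was 42.7% for ZC3H11A, 39.7% for RBFOX2 and 35.4% for PUM2 (21.4% to 50.0%). It was lowest for SF3B4, at 19.4%, and EIF3G, at 10.9%. The median 3' end peak of a library held 3 to 10 reads in K562, and no 3' end peak had fewer than 3.

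PUM2 and RBFOX2 3' end peaks carried their known motifs more often than those of the other RBPs. With 50 nt added on either side of a peak, the Pumilio motif (TGTA, any base, then ATA) was present in 50.0%, 49.3% and 46.9% of PUM2 3' end peaks in K562, and in no other library above 8.88%. The mean of 48.7% ± 1.6 (SD, n = 3) stood against 5.21% in the other 9 RBPs (exact permutation p = 0.001, the smallest possible, adjusted p = 0.001 over 2 motifs). In HEK293 it was 40.0% and 31.5%, against 5.62% (exact permutation p = 0.01, the smallest possible). GCATG was present in 26.2%, 28.0% and 31.9% of RBFOX2 3' end peaks in K562, against 7.24% in the others (exact permutation p = 0.001, adjusted p = 0.001). In HEK293 it was 32.8% and 35.7% against 10.0% (exact permutation p = 0.01), and in the singleplex libraries 36.7% and 34.5%. Among 16703 windows of 140 nt centred 75 nt before the ends of coding transcripts, 6.14% held the Pumilio motif and 10.4% held GCATG. In the 3' UTR body the Pumilio motif was present in 22.6%, 27.7% and 32.3% of PUM2 peaks in K562, below the 3' end values in every tube. GCATG was present in 27.2%, 28.3% and 29.9% of RBFOX2 body peaks, a range that overlapped that of the 3' end. The differences between end and body were not tested. Motifs were read on the mRNA strand only. A match describes the letters in the window and is not a measured binding site.

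Motif shares were higher among enriched peaks. Of 36 CC-enriched RBFOX2 3' end peaks in K562, 26 held GCATG (72.2%), against 26.5% of 695 that were not enriched. In HEK293 it was 25 of 28 (89.3%) against 32.5% of 1203. In the singleplex libraries 66.7% of 393 peaks enriched over the external background held it, against 30.2% of 2212. Of 83 enriched PUM2 3' end peaks in K562, 49 held the Pumilio motif (59.0%), against 12 of 45 (26.7%), and in HEK293 16 of 44 (36.4%) against 7 of 25. Peaks of 1 gene in several replicates share their sequence, so these counts are given without a test. In the K562 PUM2 peaks with the motif, the motif centre lay 4 nt upstream of the peak centre in the median. Where a poly(A) hexamer was within reach it lay downstream of the motif in 35 of 40 peaks, with a median start-to-start distance of 32 nt. The rule favours this order, since hexamers lie near the transcript end. For every RBP in K562 the median hexamer lay downstream of the peak centre, from 22 nt for PUM2 to 38 nt for LIN28B. The form TGTAAATA was present in 28 of the 64 K562 PUM2 peaks with the motif and TGTATATA in 20.

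The poly(A) signal was common in all libraries and set no RBP apart. AATAAA or ATTAAA lay within 50 nt of 41.1% to 69.6% of 3' end peaks over the 30 K562 libraries, and of 7.57% to 24.4% of body peaks, and the end was above the body in 30 of 30 libraries. The same held in 20 of 20 HEK293 libraries. The rule sets this direction, since 3' end peaks must lie near the transcript end, where the hexamer sits. The 140 nt windows, with or without a peak, held a hexamer in 84.2% of all transcripts. By RBP the K562 means ran from 45.7% for DDX3 and 45.8% for LIN28B to 62.6% for PUM2, and none passed (exact permutation, lowest adjusted p = 0.12). Where a hexamer was present, its median position was 22 nt downstream of the peak centre for PUM2, 26 nt for IGF2BP2 and 38 nt for LIN28B in K562. Both motif and hexamer positions are given without a test.

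**Figure D4:**
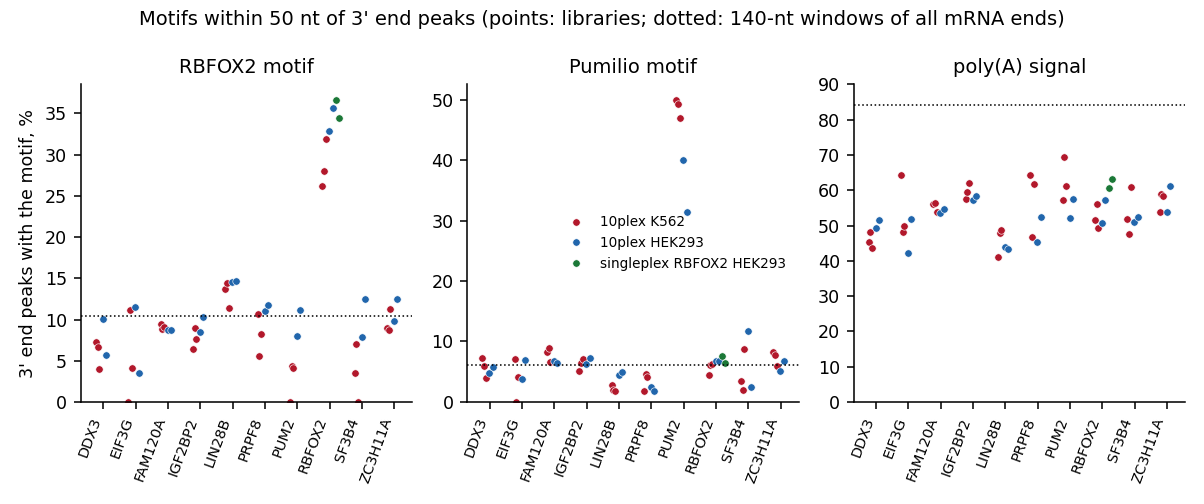
Percentage of 3' end peaks (y axes) with GCATG (left), the Pumilio motif (middle) or a poly(A) hexamer (right) within 50 nt, for each RBP (x axes), 1 point per library, with a dotted line at the share of 140 nt windows of all coding transcripts. RBFOX2 and PUM2 stand apart for their own motifs, at 26.2% to 36.7% and 31.5% to 50.0%, and no RBP does for the hexamer.

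The base composition of 3' end peaks ranged widely among RBPs. The median GC content of PUM2 3' end peaks averaged 34.3% ± 3.33 in K562 (SD, n = 3) and that of IGF2BP2 41.3% ± 2.17. That of EIF3G was 59.98% ± 5.84 and that of SF3B4 59.1% ± 0.86. For EIF3G and SF3B4 the body peaks were lower, at 51.2% and 52.1%. For PUM2 the body peaks were higher, at 40.5%. No test was run on GC content.

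The strongest reproducible sites were named for each RBP as the 2 with the highest mean fold over the CC among those enriched in all 3 K562 replicates. Their values describe sites picked for a high fold and carry no test. For LIN28B these were EMC6, a subunit of an endoplasmic reticulum membrane insertase, and DRG1, a GTP-binding protein. At EMC6 (chr17:3669601-3669656, plus strand, centre 36 nt before the end) LIN28B had 6, 15 and 9 reads and the other 9 libraries together 0, 3 and 2. The log2 fold was 6.61, 6.44 and 6.32, with a CC of 0 reads taken as 1. At DRG1 (chr22:31434365-31434434, plus strand, 52 nt before the end) the reads were 17, 10 and 19 against 4, 2 and 3, and the log2 fold was 6.11, 6.44 and 6.82. Both sites were also covered in HEK293, with log2 folds of 5.63 and 9.13 at EMC6 and of 7.63 and 6.98 at DRG1, and no other RBP had a peak at either in K562.

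For ZC3H11A the sites were in EDC4, a scaffold of mRNA decapping, and NKTR, a cyclophilin-domain protein. At EDC4 (chr16:67884327-67884381, plus strand, 145 nt before the end) ZC3H11A had 6, 24 and 14 reads against 2, 9 and 11, a log2 fold of 5.92, 5.99 and 5.29, and in HEK293 of 5.10 and 5.43. At NKTR (chr3:42648673-42648712, plus strand, 43 nt before the end) it had 3 reads in each K562 replicate against 0, 3 and 3. The NKTR peaks thus held the fewest reads of any 3' end peak, with log2 folds of 5.92, 4.57 and 4.95.

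For PUM2 the sites were SAMSN1 and HHEX, whose motifs are shown above. At SAMSN1 (chr21:14485242-14485285, 37 nt before the end) PUM2 had 4, 7 and 7 reads against 9, 30 and 23, a log2 fold, scaled by library size, of 5.67, 4.69 and 4.86. At HHEX (chr10:92695475-92695583, 117 nt before the end) it had 9, 14 and 15 reads against 56, 110 and 84, a log2 fold of 4.20, 3.81 and 4.09. At HHEX 10 K562 libraries of other RBPs also had a peak, with up to 73 reads. Neither site had a PUM2 peak in HEK293.

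For IGF2BP2 the sites were VIM, encoding the intermediate filament vimentin, and TUBG1, encoding gamma-tubulin. At VIM (chr10:17237530-17237585, plus strand, 36 nt before the end) the reads were 9, 35 and 59 against 2, 25 and 9 and the log2 fold 5.59, 4.01 and 5.03. At TUBG1 (chr17:42615054-42615229, plus strand, 78 nt before the end) they were 9, 20 and 35 against 3, 14 and 7, and the log2 fold was 5.01, 4.04 and 4.60. In HEK293 a peak lay at VIM in 1 of 2 tubes, with a log2 fold of 3.78, and at TUBG1 in both, with 2.88 and 4.03, the first of them below the 8-fold threshold.

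For FAM120A a named site was in TOR1AIP1, which encodes a nuclear envelope protein. At TOR1AIP1 (chr1:179919943-179920026, plus strand, 87 nt before the end) the reads were 32, 58 and 20 against 1, 3 and 4, and the log2 fold was 6.21, 5.05 and 3.9. It was enriched in HEK293 as well, with log2 folds of 4.63 and 5.29.

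RBFOX2 and PRPF8 had few such sites. RBFOX2 had 1 site enriched in all 3 replicates, so the requirement was lowered to 2, which named DDX6, a helicase of mRNA decapping, and PLD3, a phospholipase D family protein. All sites enriched in at least 2 replicates were ranked by mean fold over the replicates with a peak. Neither named site was the 1 enriched in all 3, which is not described here. At DDX6 (chr11:118747875-118747935, minus strand, 137 nt before the end) RBFOX2 had 8 and 14 reads against 1 and 0 in replicates 1 and 2 and no peak in replicate 3. At PLD3 (chr19:40378384-40378438, 73 nt before the end) the log2 fold was 5.18, 2.73 and 3.35, the second below the threshold. PRPF8 had a single site, in NUP62CL (chrX:107123450-107123514, minus strand, 55 nt before the end), with 40, 23 and 46 reads against 13, 7 and 16. DDX3, EIF3G and SF3B4 had no 3' end site enriched in 2 or more K562 replicates.

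In the singleplex RBFOX2 libraries the leading sites were in MAZ, a zinc finger transcription factor gene, and RAC3, a small GTPase gene. At MAZ (chr16:29811021-29811170) RBFOX2 had 595 and 330 reads, a log2 fold of 7.41 and 7.42 over the external background. In the 10plex HEK293 tubes RBFOX2 had 230 and 355 reads there, and the log2 fold over the CC was 2.15 and 2.26. At RAC3 (chr17:82034052-82034099, plus strand) it had 233 and 130 reads and a log2 fold of 7.06 in both, but over the CC in the 10plex tubes the log2 fold was 0.36 and 0.05. The RAC3 site was thus high against RNA-seq and level with the rest of the pool.

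**Figure D5:**
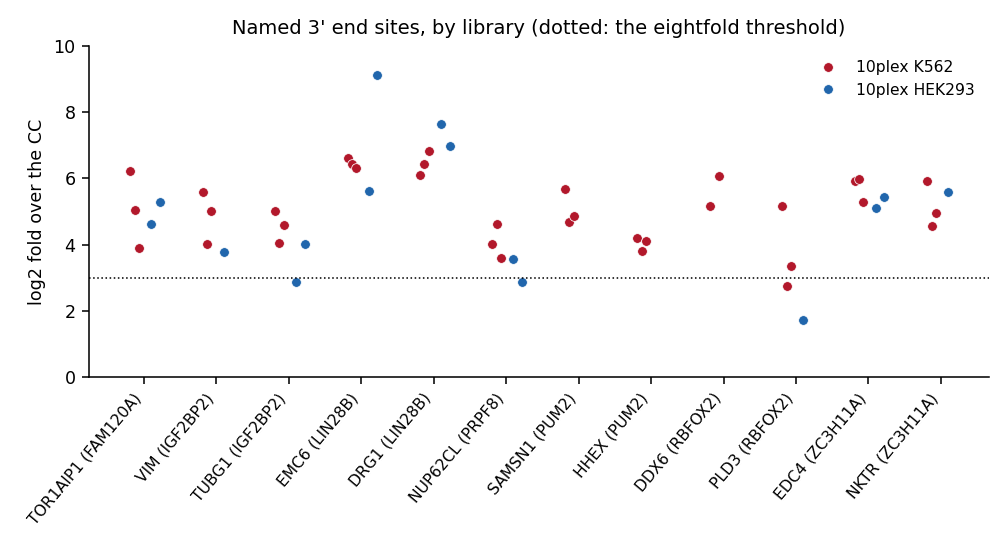
Log2 fold over the CC (y axis) at the 3' end sites named in the text (x axis, gene and RBP), with 1 point per library with a peak there and a dotted line at the 8-fold threshold. The LIN28B sites EMC6 and DRG1 lie between 5.63 and 9.13 in both cell lines, and SAMSN1, HHEX and DDX6 have no point in HEK293.

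Across the 10plex libraries a few 3' ends were covered by nearly every RBP. Of 5019 genes with a 3' end peak, 34.4% had it in 1 library and 51 had it in 20 or more of 50. Among the most widespread, ENSA, an inhibitor of protein phosphatase 2A, had peaks in 35 libraries, and 5 of 37 were enriched, all for FAM120A. RAC3 had peaks in 33 libraries and none of 41 was enriched. GAPDH also had peaks in 33 libraries, of which 3 of 36 were enriched, all for LIN28B. A gene listed only as ENSG00000251357 had them in 32 libraries, with 1 of 32 enriched. Over libraries the median enriched share of 3' end peaks was 14.2% in K562 and 13.7% in HEK293. These genes were picked for peaks in many libraries, and the CC adds up those same libraries. Few enriched peaks are thus partly set by the choice.

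Genes with a 3' end peak were partly the same in both cell lines. Of the K562 genes 67.1% also had one in HEK293, and of the HEK293 genes 58.1% had one in K562. By RBP the shared part was largest for FAM120A, at 54.8% of K562 and 53.9% of HEK293 genes, and smallest for EIF3G, at 10.9% and 12%. For PUM2 17 genes were shared, 17.2% of 99 and 25.0% of 68. Genes expressed in 1 line only and genes missed at low depth cannot be told apart here.

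Gene groups are described by how many of the genes with a 3' UTR peak had one at the end, beside 41.6% of 8128 genes with any 3' UTR peak in K562 and 39.8% of 9806 in HEK293. All 5 globin genes with a 3' UTR peak in K562 had one at the end, which the rule fixes because their 3' UTRs, with a median of 110 nt, are shorter than the window. They were led by HBE1 in 18 libraries and HBA1 in 16, and none of the 5 was enriched over the CC for any RBP, beside 33.4% of all 3384 K562 genes with a 3' end peak. HBA1 and HBA2, and likewise HBG1 and HBG2, are near-identical copies, so their reads are uncertain. No globin had a 3' UTR peak in HEK293. Among actins and tubulins it was 8 of 10 in each line, with ACTB and TUBA1B in 19 K562 libraries each, ACTB enriched for FAM120A and TUBA1B for IGF2BP2. Among respiratory chain genes it was 27 of 48 in K562 and 24 of 47 in HEK293, with COX8A in 12 K562 libraries. The 3' UTRs of the actins and tubulins and of the respiratory chain genes were also short, with medians of 480 and 438.5 nt in K562 beside 1656 nt over all genes, and the part of length in these counts was not tested.

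Heat shock genes had 8 of 12 in K562 and 5 of 11 in HEK293, with HSPD1 and HSPE1, the mitochondrial chaperonins, both enriched for PUM2 in each cell line. Enrichment was common for PUM2, on 67 of its 99 genes with a 3' end peak in K562 and 38 of 68 in HEK293. HSPE1 was also enriched for IGF2BP2 in K562 and for ZC3H11A in HEK293. Known Pumilio target mRNAs had 7 of 15 and 7 of 14. P-body and decapping factors had 9 of 18 and 8 of 19, hnRNP genes 12 of 24 and 13 of 23, and 3' end processing factors 7 of 15 and 6 of 15. Cytoplasmic ribosomal protein genes had 7 of 20 and 12 of 27, out of 84 in the list, with RPS24 in 17 K562 and 15 HEK293 libraries and enriched for LIN28B in both. Translation elongation factors had 2 of 5 in each line, iron-responsive mRNAs 3 of 7 and 2 of 6, genes of the let-7 and IGF2BP axis 5 of 11 and 5 of 12, and mRNAs of the profiled RBPs 6 of 11 and 7 of 11.

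Histone mRNAs held most of the SLBP reads at 3' ends. The rule kept 34 and 22 SLBP peaks in replicates 1 and 2, of which 15 and 12 lay on replication-dependent histone genes. Those held 96.6% and 93.6% of the reads of these peaks. Their median distance from the transcript end was 9 and 8 nt, against 79 and 67 nt for the others. The rule itself sets this distance, since these histone 3' UTRs were 53 to 84 nt long and the peak centres had to lie more than 50 nt after the stop codon. H4C8 and H4C5, shown above, had 763 and 286 reads and 717 and 206 reads, with a log2 fold over the external background of 12.8 and 13.5 and of 12.7 and 13.01. Histone H4 genes are near-identical copies, so reads may be split between them. By the rule P below 0.001 and 8-fold, all 15 and all 12 histone peaks were enriched, 21 of 34 and 22 of 22 in all, beside 55.3% of all SLBP peaks. In replicate 2 the call separated nothing, since 100% of the 3' UTR body peaks passed it too and peaks of 3 reads were enriched, whereas in replicate 1 it was 26.8% of the body peaks.

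A stem-loop search around the SLBP peaks is given as a description. A stem of 6 exact base pairs beginning with GG and a loop of 4 bases lay within 50 nt of 13 of 15 and 12 of 12 histone peaks. All of these peaks lay 1 to 27 nt before the transcript end by the rule, so the searched window took in the end of the gene wherever the peak was. Such a stem-loop lay near 1 of 19 and 2 of 10 other SLBP peaks, all on a gene listed as ENSG00000282988. In the 10plex libraries 0.493% of K562 and 0.455% of HEK293 3' end peaks had such a stem-loop. Histone 3' UTRs are short, with a median of 57 nt over 69 genes, and the rule leaves out the 50 nt after the stop codon. Of 133 and 101 SLBP peaks on histone genes, 15 and 12 met it. Polyadenylated replacement histones had 3' end peaks in 5 of 6 genes in K562 and 6 of 9 in HEK293. Replication-dependent histones had them in 11 of 11 and 1 of 1 genes with a 3' UTR peak in the 10plex libraries. Their 3' UTRs had medians of 65 and 62 nt, and the rule fixes the count for genes with 3' UTRs shorter than the window. In K562 it does not do so for all of them. There 45.2% of the 3' UTR peaks of these genes lay at the 3' end and the rest in the body.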

How the data were processed

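Per the labels and methods, the authors trimmed reads with cutadapt 2.8, aligned them to GRCh38 with STAR 2.7.6, removed duplicates by molecular identifier, called peaks per library with CLIPper and merged overlapping peaks without pooling replicates. The deposited merged lists give a log2 fold over an external RNA-seq background and its −log10 P. For the CC the authors deposited a log2 fold and −log10 P in K562 replicate 3, and elsewhere a chi-squared statistic on lists without repeats. The deposited CLIPper lists hold a p-value per peak, and some hold a display score that the authors' caller made from it. The RBP of each 10plex library is named only with its deposited data, not in the sample labels.

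Peaks were placed on GENCODE release 44 canonical transcripts. Reads per peak were recovered from the deposited fold and P, and equalled the named reads in 96.3% to 99.5% of peaks where a deposited list names them. CC reads were solved from the statistic, with whole reads that returned it within 0.002 or 0.1% for 56.9% to 98.7% of peaks by library and the nearest whole number for nearly all others, the rest being left without a value; 92.7% of K562 and 89.6% of HEK293 3' end peaks had a CC value. P over the CC in K562 replicates 1 and 2 and in both HEK293 replicates is chi-squared also at few reads. Reads are those left after removal of duplicates, and their intervals would cover counting error only. Peaks near an adapter-like sequence (58, or 0.255%) were kept.

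Tests were exact permutations within tubes (numpy 2.4.6, scipy 1.17.1, Python 3.11.15), with Benjamini-Hochberg adjustment and a threshold of 0.05, and were tested on simulated data. Placement and sequences used bedtools 2.31.1. Named sites were the 2 per RBP with the highest mean fold among those enriched in all 3 K562 replicates, not near an adapter-like sequence, or in 2 where fewer qualified; named genes were the 5 with peaks in most libraries. Some of these are not reported here. The regions, gene lists and tests were chosen with earlier results of these data known. Alternatives were the region's width, placement, enrichment, repeats, reads, adapter-like sequences, cell line and replicates.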

Additional observations from a re-analysis of the deposited data

How the results depend on the processing

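The number of RBPs past the threshold for the 3' end share of 3' UTR peaks was 2 and became 1 with peaks enriched over the CC and 0 with the stricter enrichment, with the lists without repeats, in HEK293 and with at least 10 reads per peak, the last chosen after seeing the data; without 1 replicate it was 0 to 0, since 100 choices cannot pass over 10 RBPs unless several do. HEK293 also has 100 choices. In K562, lists without repeats were at hand for replicates 1 and 2 only. With them the differences were 4.95 points for PUM2 and 5.24 for ZC3H11A (exact permutation, adjusted p = 0.15 for both). The part of repeats was not tested, and the same limits hold for these settings below. Weighted by reads the count stayed at 2, but PUM2 lost its call (4.93 points, exact permutation, adjusted p = 0.0533). For the share of all peaks it was 0 and became 1 with peaks enriched over the CC. For density it was 1 and became 0 with the lists without repeats and in HEK293, and 0 to 0 without 1 replicate; with peaks enriched over the CC the count stayed at 1, but PUM2 lost its call (difference 1.21, exact permutation, adjusted p = 0.125). For the CC-enriched share it was 1 and became 0 over the external background, with a window of 100 nt, with the lists without repeats and in HEK293, and 0 to 0 without 1 replicate. For the poly(A) signal it was 0, and 1 among body peaks, a setting chosen after seeing the data. The 3' end minus body difference in enrichment turned from 3.82 to -0.12 points over the external background. The median replicate overlap over RBPs moved from 37.5% to 28.8% with peaks enriched over the CC. The cause of these changes was not tested.

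The PUM2 and ZC3H11A differences in the 3' end share kept their sign under every alternative run (1.19 to 14.1 and 3.02 to 8.39 points), and both motif differences of 3' end peaks passed under each, at 29.98 to 52.2 points for PUM2 and 13.9 to 65.3 for RBFOX2; among body peaks, added after seeing the data, they were 24.8 and 16.6 points. Without the tube as a replicate block, all counts of RBPs past the threshold stayed as they were (2 for the 3' end share). With the replicate number as a replicate block, no RBP differed between cell lines (count 0, lowest adjusted p = 0.5, exact sign flips), and the RBFOX2 singleplex difference was 2.81 points (exact p = 0.5); the numbers name different tubes. Of the values for the main comparisons under alternatives, 92 stayed within the main value's range or side of the threshold, 23 moved and 1 reversed. Exact binomial P in all replicates, added after seeing the data, left PUM2 past the threshold for the CC-enriched share. Library medians of 3 to 10 reads per 3' end peak in K562 leave little depth behind single sites.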
